A study of Mus musculus with 18 samples.

Results

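Il2rg, Prkdc and 7 partner genes were followed across 18 K7M2 tumors grown in NSG mice, which carry the scid allele of Prkdc and a targeted allele of Il2rg, or in Balb/c mice, which carry neither of these alleles. The 9 genes were taken by name from the 20878 genes of the expression table: the shared receptor chain Il2rg, the receptor chains Il2ra, Il2rb, Il4ra, Il7r, Il15ra and Il21r that pair with it, the kinase Jak3 that binds it, and Prkdc. K7M2 is an osteosarcoma cell line from a Balb/c mouse. The cells carried a control shRNA (ATRX CT) or an shRNA against Atrx (ATRX KD), and were injected under the skin of Balb/c (Balb/cJ) or NSG mice, of the strain NOD.Cg-Prkdc scid Il2rg tm1Wjl/SzJ, described in the study's methods as females of 6 to 8 weeks. The sequenced tumors were 4 of ATRX CT and 4 of ATRX KD cells from Balb/c mice, and 5 of each from NSG mice, 1 tumor per animal. All groups share the same graft line, whose own Il2rg and Prkdc alleles were not described as altered. NSG mice carry both mutations in every cell on a NOD background, so the mutations, the strain and the lack of lymphocytes cannot be told apart in a comparison of hosts. Cages were assigned whole to a cell type in the study, and cage and shRNA likewise cannot be told apart.

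The common gamma chain, encoded by Il2rg, is a signalling subunit shared by the receptors for IL-2, IL-4, IL-7, IL-9, IL-15 and IL-21. Each receptor adds its own cytokine-binding chain, and the kinase JAK3 sits on the common gamma chain while JAK1 sits on the partner, after which STAT proteins, STAT5 and STAT6 among them, are phosphorylated. T cells and NK cells need these signals to develop and survive. Prkdc encodes the catalytic subunit of DNA-dependent protein kinase, which joins broken DNA ends, including those made by the RAG recombinase when antigen receptor genes are assembled. The scid allele of Prkdc is a point mutation and the Il2rg allele of NSG mice a targeted one, and together they leave the animals without T, B and NK cells.

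In mm10, Il2rg is a minus-strand gene of chromosome X, from 101264385 to 101268255, with 8 exons and 1663 nt in its longest annotated transcript. Prkdc lies on the plus strand of chromosome 16, from 15637866 to 15842239, and its single annotated transcript has 86 exons and 12674 nt. The longest annotated transcripts of the other 7 genes were between 1717 nt (Il15ra) and 5094 nt (Il4ra) long. Jak3, on chromosome 8 from 71676383 to 71690577, was the only one of the 9 whose exons overlapped those of another annotated gene, Insl3 on the same strand, so reads in the shared part cannot be assigned to one of them. Insl3 was listed at up to 3.52 FPKM. The values were summed per gene and do not show which exons were read. A transcript with an altered end would still be counted, in full or in part.

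Promoter sequence from RefSeq (GRCm38.p6, the same assembly as mm10) was at hand for 7 of the 9 genes, in 8 windows. The 250 bases before the start site are shown for Il2rg and Il2ra, whose levels differed most clearly between hosts along with Il2rb, and for Il15ra and Il7r, which did not pass the test. Capitals mark matches on either strand to the ETS core CCGGAAG or to the STAT palindrome TTCNNNGAA, which do not overlap each other here. The windows are chrX:101268256-101268505 on the minus strand (Il2rg), chr2:11642542-11642791 on the plus strand (Il2ra), chr2:11705043-11705292 on the plus strand (Il15ra) and chr15:9529877-9530126 on the minus strand (Il7r).
Il2rg: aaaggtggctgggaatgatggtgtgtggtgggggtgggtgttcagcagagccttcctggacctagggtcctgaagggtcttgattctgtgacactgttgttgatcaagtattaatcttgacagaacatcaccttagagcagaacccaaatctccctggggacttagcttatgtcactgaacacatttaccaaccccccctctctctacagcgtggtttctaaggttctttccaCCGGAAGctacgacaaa
Il2ra: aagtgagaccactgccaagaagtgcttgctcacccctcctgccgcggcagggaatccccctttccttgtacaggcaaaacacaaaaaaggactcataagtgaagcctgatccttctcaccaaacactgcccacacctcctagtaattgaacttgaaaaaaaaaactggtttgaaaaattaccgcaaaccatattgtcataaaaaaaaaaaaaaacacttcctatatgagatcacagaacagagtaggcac
Il15ra: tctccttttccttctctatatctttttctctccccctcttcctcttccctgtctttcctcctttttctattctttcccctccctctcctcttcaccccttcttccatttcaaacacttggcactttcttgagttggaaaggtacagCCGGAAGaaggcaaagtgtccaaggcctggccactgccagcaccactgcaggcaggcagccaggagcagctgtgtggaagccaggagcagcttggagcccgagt
Il7r: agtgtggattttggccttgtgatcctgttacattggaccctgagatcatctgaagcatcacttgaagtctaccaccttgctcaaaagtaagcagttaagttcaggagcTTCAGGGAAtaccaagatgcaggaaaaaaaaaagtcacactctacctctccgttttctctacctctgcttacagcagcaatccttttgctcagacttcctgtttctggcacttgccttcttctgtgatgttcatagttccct
The ETS core was 10 bases before the Il2rg start site and 97 bases before the Il15ra start site shown. The STAT palindrome was 133 bases before that of Il7r, and the Il2ra window held neither. The windows not shown, those of Il21r, Il4ra, Jak3 and another start site of Il15ra, held neither as well. Across 32851 such windows, 6.91% held the ETS core and 7.02% the STAT palindrome. A gene with a match (Il2rg) and one without (Il2ra) were both higher in Balb/c tumors, and a match says nothing of binding.

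Levels are given as FPKM, in which fragment counts are divided by transcript length and by library depth. A trend along transcript length that differed between libraries remained, so comparisons between genes of unlike length are approximate. Differences are in mean log2(FPKM + 1), which understates the change of genes near 0. They were tested with limma over all genes whose mean reached 0.1 FPKM in the tumors compared, and a gene was called where the Benjamini-Hochberg adjusted p was under 0.05 and the fold on this scale at least 2. Libraries held an estimated 14800000 to 24800000 fragments. The host labels were checked with T cell genes: the summed FPKM of 8 of them (Cd3d, Cd3e, Cd3g, Cd2, Cd5, Cd6, Cd8a and Lck) was between 23.6 and 44.7 in Balb/c tumors and between 0.187 and 0.693 in NSG tumors. Transcripts of 4 Y-linked genes summed to at most 0.0115 FPKM in Balb/c tumors and to between 13.1 and 34.3 FPKM in NSG tumors, although females are described, so the sex of the hosts may be a further difference that cannot be told apart from the strain. Atrx, the target of the shRNA, was at 17.6 ± 7.12 FPKM in ATRX CT and 14.0 ± 6.54 FPKM in ATRX KD tumors of Balb/c mice (SD, n = 4 each), and at 17.6 ± 4.99 and 10.2 ± 3.47 FPKM in those of NSG mice (SD, n = 5 each). The groups overlapped in both hosts and Atrx was not called in either (log2 differences of -0.34 in Balb/c and -0.74 in NSG mice, adjusted p = 0.999 and 0.0610 in limma). For the cell line itself, the study reports a Western blot showing loss of ATRX protein in the knock-down cells. RNA of a whole tumor may also hold Atrx transcripts of host cells. In 6 libraries long transcripts read higher relative to short ones (relative slopes of 0.1002 to 0.211 log2 units per doubling of length, against -0.146 to -0.000170 in the other 12). These 6 were mice 43 and 45 (Balb/c ATRX CT), 56 and 60 (Balb/c ATRX KD), 3 (NSG ATRX CT) and 27 (NSG ATRX KD). Mouse 27 had an Atrx level of 16.4 FPKM, while the other 4 NSG ATRX KD tumors, at 8.42 to 8.88 FPKM, were below every NSG ATRX CT tumor (11.6 to 24.4 FPKM). For NSG mice, removal of the length trend gave an Atrx log2 difference of -0.78 (adjusted p = 0.0116 in limma), and the library class as a term gave -0.74 (adjusted p = 0.00837 in limma). In Balb/c mice these were -0.28 (adjusted p = 0.9996 in limma) and -0.34 (adjusted p = 0.474 in limma).

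**Figure D1:**
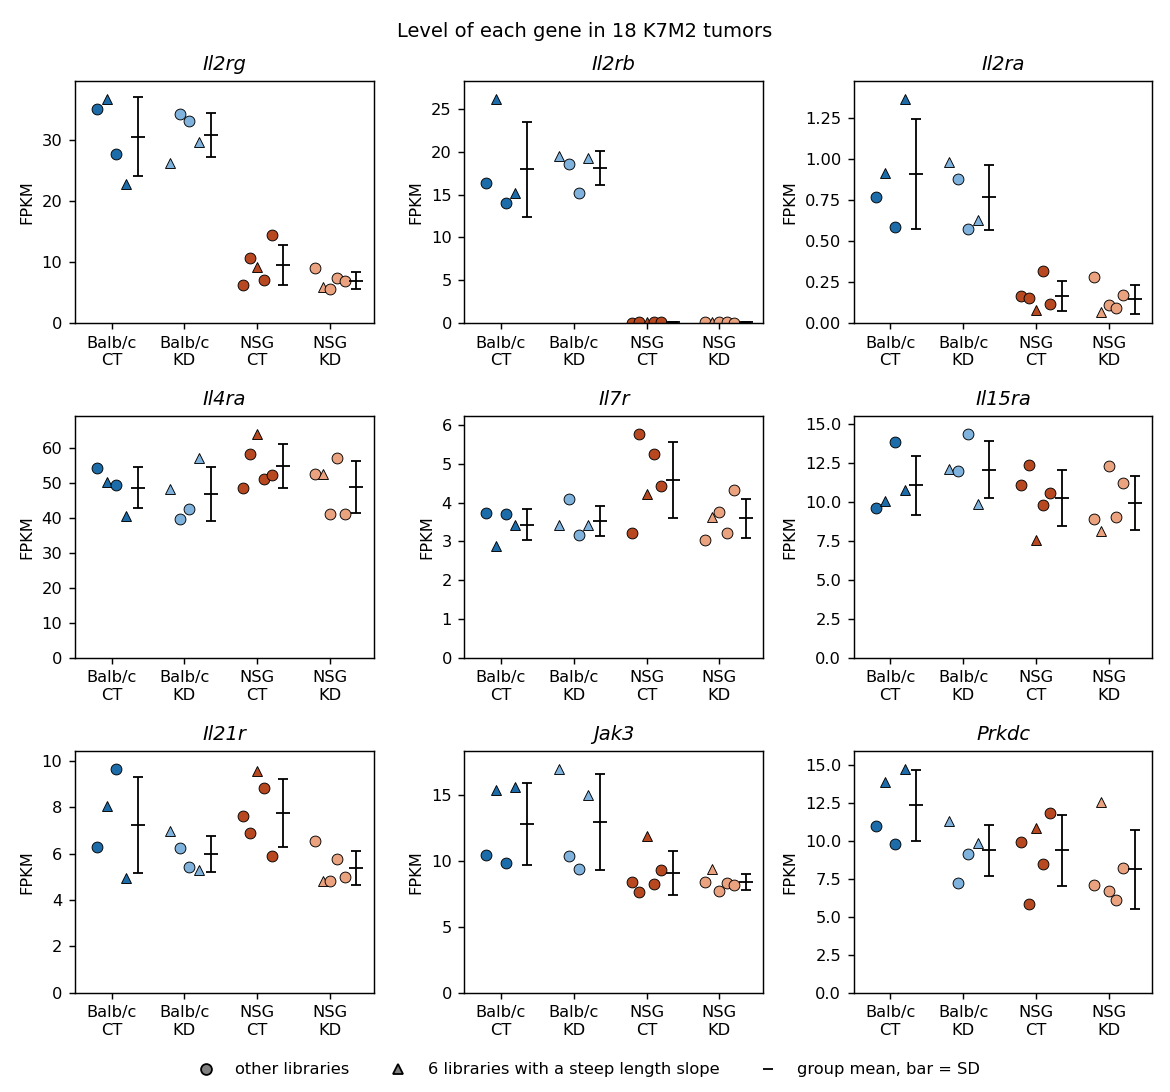
FPKM of the 9 genes (y axis, from 0, a scale per gene) in each of the 18 tumors by host and graft (x axis). Points are tumors, triangles the 6 libraries with a steep slope along transcript length, and the bars to the right of each group are the mean ± SD. Il2rg, Il2rb and Il2ra of Balb/c tumors lie above all NSG tumors, and the other 6 genes overlap between hosts.

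Il2rg levels were lower in NSG than in Balb/c tumors, but its transcripts were far from absent. In Balb/c mice, the ATRX CT tumors had 35.1, 36.8, 27.7 and 22.8 FPKM (mice 41, 43, 44 and 45) and the ATRX KD tumors 26.2, 34.2, 33.1 and 29.7 FPKM (mice 56, 58, 59 and 60). In NSG mice, the ATRX CT tumors had 6.23, 10.6, 9.25, 7.01 and 14.5 FPKM (mice 1 to 5) and the ATRX KD tumors 9.09, 5.97, 5.50, 7.29 and 6.88 FPKM (mice 26 to 30). Every Balb/c tumor was above every NSG tumor, the nearest being the ATRX CT tumors of mice 45 and 5. The NSG values rested on an estimated 139 to 365 fragments per tumor, well over the floor of 3 fragments (at most 0.135 FPKM). The group means were 30.6 ± 6.53 FPKM (SD, n = 4) against 9.51 ± 3.27 FPKM (SD, n = 5) in ATRX CT tumors, a ratio of 3.22. The log2 difference was 1.62 (SE 0.23, adjusted p = 0.00248 in limma). In ATRX KD tumors the means were 30.8 ± 3.63 FPKM (SD, n = 4) against 6.94 ± 1.39 FPKM (SD, n = 5), a ratio of 4.44, with a log2 difference of 2.01 (SE 0.14, adjusted p = 1.88e-05 in limma). Il2rg was called in both comparisons. In a whole tumor, fewer expressing cells and less RNA per cell cannot be told apart, nor can transcripts of the host from those of the graft. Transcripts of the targeted host allele may also be counted only in part, which cannot be told apart from either.

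Il2rb, the chain shared by the IL-2 and IL-15 receptors and typical of NK cells and activated T cells, showed the widest gap. Balb/c ATRX CT tumors had 16.4, 26.2, 14.0 and 15.2 FPKM (mice 41, 43, 44 and 45), and Balb/c ATRX KD tumors 19.6, 18.6, 15.2 and 19.3 FPKM (mice 56, 58, 59 and 60). NSG ATRX CT tumors had 0, 0.146, 0.0684, 0.117 and 0.0741 FPKM (mice 1 to 5), and NSG ATRX KD tumors 0.0591, 0.0749, 0.112, 0.116 and 0.0159 FPKM (mice 26 to 30). The hosts were thus separated by the whole span between 0.146 and 14.0 FPKM. NSG values corresponded to at most 6.93 estimated fragments per tumor, and 8 of 10 NSG tumors were at or above 3 fragments. The log2 difference was 4.09 (SE 0.17, adjusted p = 2.88e-07 in limma) in ATRX CT and 4.15 (SE 0.11, adjusted p = 2.17e-08 in limma) in ATRX KD tumors, and the means differed 221-fold and 240-fold. By unadjusted p, Il2rb ranked 6 among 14828 genes in the first comparison and 1 among 14669 in the second. Its mean was 0.0811 FPKM in NSG ATRX CT and 0.0755 FPKM in NSG ATRX KD tumors. Both are under 0.1 FPKM, so Il2rb passed the filter only through the Balb/c tumors.

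Il2ra, the chain that raises the affinity of the receptor for IL-2 and a marker of regulatory and activated T cells, was low in all tumors. The Balb/c tumors had 0.765, 0.911, 0.582 and 1.36 FPKM (ATRX CT, mice 41, 43, 44 and 45) and 0.979, 0.878, 0.571 and 0.626 FPKM (ATRX KD, mice 56, 58, 59 and 60). The NSG tumors had 0.161, 0.153, 0.0814, 0.313 and 0.113 FPKM (ATRX CT, mice 1 to 5) and 0.280, 0.0667, 0.107, 0.0903 and 0.169 FPKM (ATRX KD, mice 26 to 30). No Balb/c tumor was as low as an NSG tumor, and the means differed 5.51-fold in ATRX CT and 5.35-fold in ATRX KD tumors. The log2 differences of 0.70 (SE 0.12, adjusted p = 0.00768 in limma) and 0.62 (SE 0.09, adjusted p = 0.00398 in limma) passed the test but not the fold threshold. With a pseudocount of 0.1 they were 1.93 and 1.87, and Il2ra was called in both.

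Thus 2 of the 9 genes, Il2rg and Il2rb, were called in ATRX CT tumors, where 1.43% of all 14828 genes tested were, and the same 2 in ATRX KD tumors, where 1.39% of 14669 were. By adjusted p alone there were 3 of 9 in each, against 3.18% and 3.64% of all genes. The same 3 had no overlap between hosts, as had 7.57% of genes in ATRX CT and 8.13% in ATRX KD tumors. All of these were higher in Balb/c tumors. Il2rb, counted each time, passed the filter only through the Balb/c tumors, so its place in these counts is no independent support. Without Il2rb, Il2rg is left among the called genes, and Il2rg and Il2ra are left in the other counts. Over the 9 genes, the median log2 difference between hosts was 0.38 in ATRX CT and 0.26 in ATRX KD tumors, against 0.01 and -0.02 over all genes tested. These medians are the values of Prkdc and Il15ra, neither of which was called. The 2 comparisons share no tumor.

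**Figure D2:**
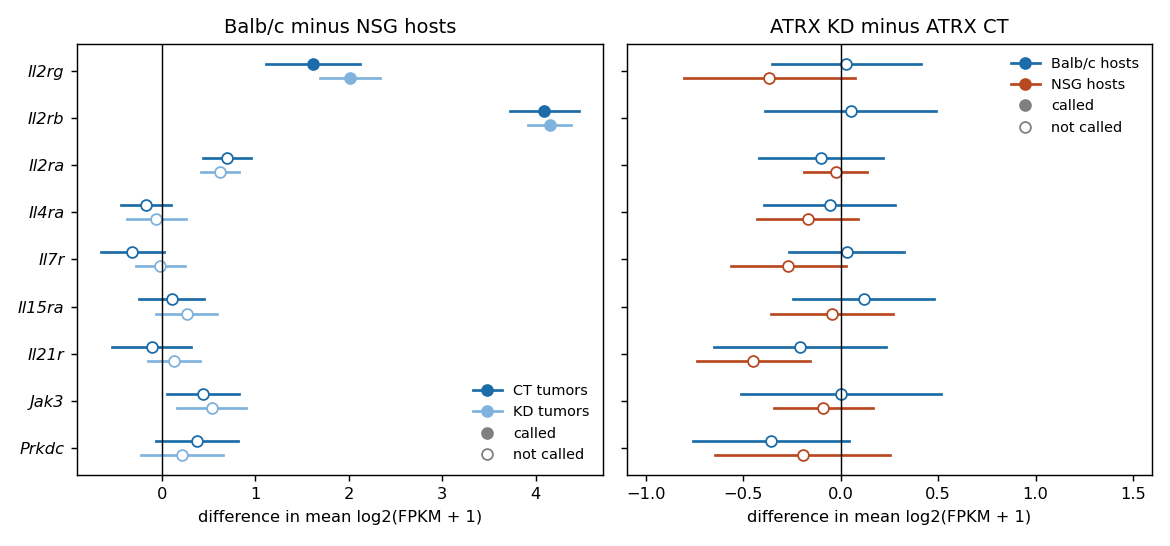
Difference in mean log2(FPKM + 1) of the 9 genes (x axis) between hosts (left, Balb/c minus NSG, in ATRX CT and ATRX KD tumors) and between grafts (right, ATRX KD minus ATRX CT, in each host), with 95% intervals from limma. Filled points are called: Il2rg at 1.62 and 2.01 and Il2rb at 4.09 and 4.15 on the left, and none on the right, where Il2rb of NSG tumors was below the filter.

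Among other leukocyte genes, those of T and NK cells were higher in Balb/c tumors. Of the 8 T cell genes, 6 were called higher in Balb/c than NSG mice in ATRX CT and 8 in ATRX KD tumors. Of 6 NK cell genes (Ncr1, Klrb1c, Klrk1, Eomes, Prf1 and Gzma), 6 and 5 were. Over all genes, 131 of 14828 and 165 of 14669 were called higher in Balb/c mice. NSG mice lack T and NK cells, and the T cell genes had already served to check the host labels. The outcome for both lists was thus given by the choice of hosts and is no independent support for the Il2rg and Il2rb differences. The summed FPKM of the NK cell genes was between 35.1 and 244.0 in Balb/c and between 0.605 and 1.98 in NSG tumors. None of the listed T and NK cell genes was at 0 in every NSG tumor. Over the NSG tumors alone, 1 of the 8 T cell and 1 of the 6 NK cell genes passed the filter. The others reached it in the comparisons of hosts with the Balb/c tumors included. The part of these cells in the receptor values was not tested. Of 8 macrophage and monocyte genes (Adgre1, Csf1r, Cd68, C1qa, C1qb, Mrc1, Ccr2 and Lyz2), 0 were called between hosts in either comparison. Their summed FPKM overlapped, at 1877 to 3708 in Balb/c and 1733 to 3711 in NSG tumors.

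Il2rg was next set against Ptprc, which encodes the pan-leukocyte phosphatase CD45. Ptprc was at 34.8 ± 3.75 (ATRX CT) and 35.4 ± 1.57 FPKM (ATRX KD) in Balb/c tumors (SD, n = 4 each), and at 26.6 ± 4.52 and 21.0 ± 1.54 FPKM in NSG tumors (SD, n = 5 each). Its log2 difference between hosts was 0.38 (adjusted p = 0.175 in limma) in ATRX CT and 0.73 (adjusted p = 0.000966 in limma) in ATRX KD tumors, below the fold threshold in both. The Il2rg level in percent of the Ptprc level was 107, 96.9, 73.2 and 74.9 in Balb/c ATRX CT tumors (mice 41, 43, 44 and 45) and 70.8, 93.9, 98.3 and 85.8 in Balb/c ATRX KD tumors (mice 56, 58, 59 and 60). It was 22.2, 47.9, 27.9, 25.7 and 64.1 in NSG ATRX CT tumors (mice 1 to 5) and 44.3, 30.3, 25.0, 31.4 and 34.9 in NSG ATRX KD tumors (mice 26 to 30). Again the hosts did not overlap, with the tumor of mouse 5 closest to the Balb/c range. The ratio was 2.50-fold higher in Balb/c mice in ATRX CT and 2.63-fold higher in ATRX KD tumors (exact permutation test, two-sided, p = 0.0159 for each, the smallest that 126 arrangements can give; adjusted p = 0.0317 over the 4 comparisons made). With the mean of Ptprc, Coro1a and Hcls1 as the reference, the log2 differences were 1.48 and 1.69 in place of 1.32 and 1.40. Between ATRX KD and ATRX CT tumors the ratio was 0.997-fold in Balb/c (exact permutation test, p = 1) and 0.946-fold in NSG mice (exact permutation test, p = 0.825).

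**Figure D3:**
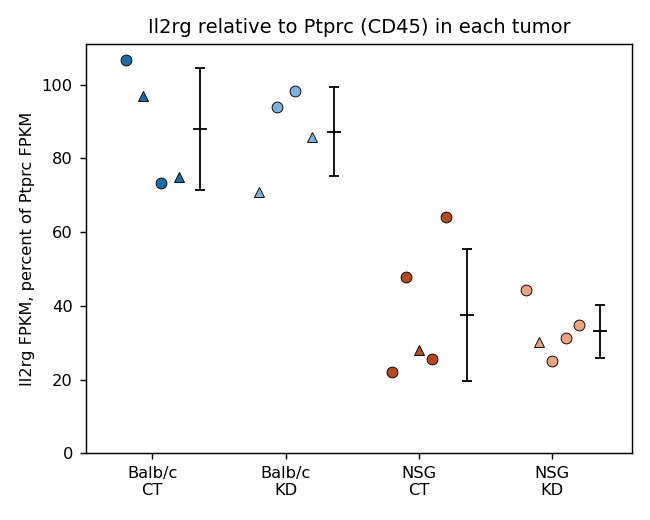
Il2rg FPKM in percent of Ptprc FPKM (y axis, from 0) in each tumor by host and graft (x axis), with triangles for the 6 libraries with a steep slope along transcript length and mean ± SD beside each group. Balb/c tumors lie between 70.8 and 107 and NSG tumors between 22.2 and 64.1.

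Prkdc transcripts, summed over host and graft cells, did not differ detectably between hosts. Transcripts of the host cannot be told apart from those of the graft, whose own Prkdc alleles were not described as altered. The level of the host allele alone was thus not measured. The Balb/c tumors had 11.0, 13.9, 9.78 and 14.8 FPKM (ATRX CT, mice 41, 43, 44 and 45) and 11.3, 7.27, 9.14 and 9.88 FPKM (ATRX KD, mice 56, 58, 59 and 60). The NSG tumors had 9.96, 5.85, 10.9, 8.50 and 11.9 FPKM (ATRX CT, mice 1 to 5) and 7.10, 12.6, 6.72, 6.09 and 8.20 FPKM (ATRX KD, mice 26 to 30). The ranges overlapped for both grafts, and among ATRX KD tumors the highest value came from an NSG host, mouse 27, whose library is one of the 6 with a steep slope along transcript length. Prkdc has the longest transcript of the 9 genes. The log2 difference was 0.38 (95% interval -0.06 to 0.81, adjusted p = 0.312 in limma) in ATRX CT and 0.21 (95% interval -0.23 to 0.65, adjusted p = 0.632 in limma) in ATRX KD tumors. With the trend along transcript length removed from each library, the log2 differences were 0.14 (adjusted p = 0.639 in limma) and 0.0982 (adjusted p = 0.740 in limma). Even the lowest tumor had an estimated 1368 fragments on Prkdc, so counting error did not limit these values. The Prkdc gene is also altered in its sequence in Balb/c strains, which carry a variant linked to lower DNA-PKcs protein, and transcript levels do not reflect the activity of either form.

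Of the 5 other receptor chains and kinase, none was called between hosts. Il4ra, the IL-4 and IL-13 binding chain that myeloid and stromal cells also express, was the most abundant of the 9 in every group. It was between 39.7 and 57.2 FPKM (median 48.8) in Balb/c and between 41.0 and 64.2 FPKM (median 52.5) in NSG tumors, with log2 differences of -0.17 (95% interval -0.44 to 0.10) and -0.06 (95% interval -0.38 to 0.26). Il7r, the IL-7 binding chain that also serves the TSLP receptor, was between 2.88 and 4.09 FPKM (median 3.42) in Balb/c and between 3.04 and 5.78 FPKM (median 3.99) in NSG tumors. Its log2 differences were -0.32 (95% interval -0.65 to 0.02) and -0.02 (95% interval -0.28 to 0.24). Il7r, a marker of T cells in blood, thus overlapped between hosts, while the summed FPKM of the 8 T cell genes did not. Il15ra, which binds IL-15 and presents it to neighbouring cells, was between 9.65 and 14.4 FPKM (median 11.4) in Balb/c and between 7.54 and 12.4 FPKM (median 10.2) in NSG tumors, with log2 differences of 0.10 (95% interval -0.24 to 0.45) and 0.26 (95% interval -0.06 to 0.59). Il21r, the IL-21 binding chain, was between 4.96 and 9.66 FPKM (median 6.26) and between 4.80 and 9.58 FPKM (median 6.22), with log2 differences of -0.11 (95% interval -0.53 to 0.31) and 0.13 (95% interval -0.15 to 0.41).

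Jak3 did not pass the test between hosts, and its values differed between classes of libraries. The Balb/c tumors had 10.5, 15.4, 9.88 and 15.6 FPKM (ATRX CT, mice 41, 43, 44 and 45) and 17.0, 10.4, 9.39 and 15.0 FPKM (ATRX KD, mice 56, 58, 59 and 60). The NSG tumors had 8.45, 7.62, 11.9, 8.23 and 9.33 FPKM (ATRX CT, mice 1 to 5) and 8.42, 9.40, 7.70, 8.37 and 8.19 FPKM (ATRX KD, mice 26 to 30). In each group the tumors with the highest Jak3 were those whose libraries had the steep slope along transcript length. The log2 differences between hosts, 0.44 (SE 0.18, adjusted p = 0.212 in limma) and 0.53 (SE 0.17, adjusted p = 0.133 in limma), did not pass. Within the 4 Balb/c and 2 NSG steep libraries, Jak3 was between 15.0 and 17.0 against 9.40 and 11.9 FPKM. Within the other 4 Balb/c and 8 NSG libraries it was between 9.39 and 10.5 against 7.62 to 9.33 FPKM. In these classes, in which both grafts were pooled, the hosts did not overlap for Jak3 (exact permutation test in the larger class, log2 difference 0.25, p = 0.00404, the smallest that 495 arrangements can give; in the smaller class 0.53, p = 0.133, likewise the smallest). These classes were set after seeing the data, and 18 such tests were made, 1 for each gene and class, with no adjustment. The hosts did not overlap for 4 of the 9 genes in the larger class (Il2rg, Il2ra, Il2rb and Jak3, all higher in Balb/c tumors), where 4.91% of all genes did not. In the smaller class they did not overlap for 6 of the 9, where 23.6% of all genes did not: the same 4 and Il15ra (9.85 to 12.2 against 7.54 to 8.14 FPKM) were higher in Balb/c tumors, and Il7r was lower (2.88 to 3.43 against 3.63 to 4.23 FPKM). With the class as a term of the fit, the adjusted p of Jak3 was 0.133 in ATRX CT and 0.0739 in ATRX KD tumors in limma. Within the larger class the log2 difference between hosts was 1.89 for Il2rg, 3.98 for Il2rb and 0.21 for Prkdc, and within the smaller 1.80, 4.27 and 0.07.

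**Figure D4:**
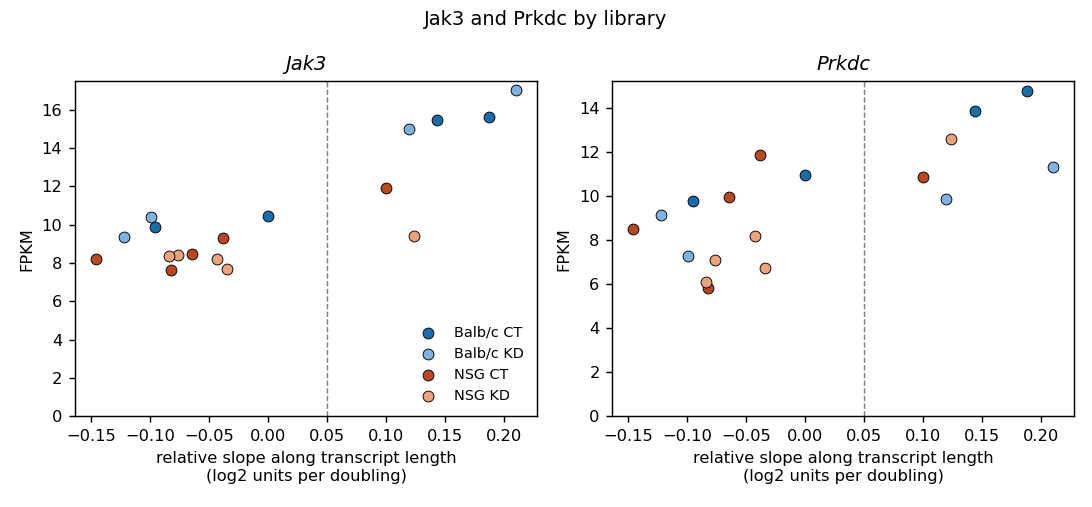
FPKM of Jak3 (left) and Prkdc (right) on the y axis, from 0, against the slope of the library along transcript length relative to the average library (x axis, log2 units per doubling of length). Each point is a tumor, coloured by host and graft, and the dashed line at 0.05 separates the 2 classes. To the right of the line, the 4 Balb/c libraries have Jak3 at 15.0 to 17.0 FPKM and the 2 NSG libraries at 9.40 and 11.9 FPKM.

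The order of levels, not corrected for the trend along transcript length, differed between hosts. In both Balb/c groups, Il4ra was followed by Il2rg and Il2rb, at group means of 30.6 and 17.96 FPKM in ATRX CT tumors, and Il2ra came last. Il2rg and Il2rb overlapped in ATRX CT but not in ATRX KD tumors. In both NSG groups, Il15ra came after Il4ra, at 10.3 and 9.93 FPKM, Il2rg was within the overlapping ranges of Il15ra, Prkdc and Jak3, and Il2rb came last. Il7r stood below Il21r without overlap in every group, and Il2ra below Il7r.

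The ATRX knock-down moved none of the 9 genes past the threshold in either host. In Balb/c mice 0 of 9 were called, where 1 of 14701 genes was (0.0068%), and 0 of 9 had an unadjusted p under 0.05, with 609 genes overall. Differences were between -0.36 (Prkdc, 95% interval -0.76 to 0.04) and 0.12 (Il15ra, 95% interval -0.24 to 0.48). Il2rg differed by 0.03 (95% interval -0.36 to 0.41). In NSG mice 0 of the 8 tested genes were called, against 0.464% of 14654. Over all genes, 3853 of 14654 had an unadjusted p under 0.05 in limma. Of the 8, 1 had, a smaller share. That gene was Il21r: ATRX CT tumors had 7.64, 6.89, 9.58, 8.82 and 5.91 FPKM (mice 1 to 5) and ATRX KD tumors 6.53, 4.80, 4.82, 5.76 and 5.00 FPKM (mice 26 to 30). Only the ATRX KD tumor of mouse 26 reached into the ATRX CT range. The log2 difference was -0.45 (SE 0.13, adjusted p = 0.0616 in limma), short of the fold threshold throughout. Its adjusted p in limma was 0.0404 to 0.0907 over the other settings with all tumors, and 0.0406 to 0.155 without 1 tumor. Other genes differed between the same tumors: Ptprc was at 26.6 FPKM in ATRX CT and 21.0 FPKM in ATRX KD tumors. Of 8 macrophage and monocyte genes, 2 had an adjusted p under 0.05 in limma, both lower in ATRX KD tumors. The median log2 difference over the 8 was -0.47. An adjusted p under 0.05 in limma was found for 994 of all 14654 genes tested there. The summed FPKM of the 4 Y-linked genes was between 24.2 and 34.3 in ATRX CT and between 13.1 and 21.2 in ATRX KD tumors, without overlap, and 3 of the 4 had an adjusted p under 0.05 in limma, all lower in ATRX KD tumors. Their part in the Il21r values was not tested. Il2rb was below the filter in NSG mice and at most at 0.146 FPKM in both grafts. No gene had groups without overlap, as 3.18% of genes had in Balb/c and 7.5% in NSG mice. The effect of the shRNA differed between hosts for 0 of 9 genes, with 0 of 14803 genes called (0.0%), 0 of the 9 at an unadjusted p under 0.05 and 1527 genes overall. The Balb/c minus NSG difference of the effect was largest for Il2rg, at 0.39 (SE 0.28, adjusted p = 0.685 in limma). The comparisons between grafts share tumors with those between hosts.

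Of the ligands, those made outside lymphocytes were expressed in both hosts. IL-15 transcripts (Il15) were between 11.7 and 25.2 FPKM (median 15.2) in Balb/c and between 11.9 and 29.0 FPKM (median 20.05) in NSG tumors. Il7 was between 4.12 and 8.01 FPKM (median 6.47) and between 5.93 and 9.82 FPKM (median 7.58). Tslp, an epithelial and stromal cytokine that signals through Il7r and Crlf2 rather than the common gamma chain, was between 1.72 and 4.14 FPKM and between 3.33 and 7.11 FPKM. It was lower in Balb/c than NSG mice in ATRX KD tumors (log2 difference -0.53, SE 0.12, adjusted p = 0.0430 in limma) but below the fold threshold. Il4 was low, at 0.102 to 0.687 FPKM in Balb/c tumors and listed at 0 in 7 of 10 NSG tumors. Il13 was listed at 0 in 4 of 8 and 9 of 10 tumors and Il21 in 5 of 8 and 9 of 10. Il2 and Il9 were not analysed here. In all, 4 of the 6 ligands analysed passed the filter in the comparisons of hosts and 0 were called.

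Downstream, 0 of 5 kinases and STATs (Jak1, Stat3, Stat5a, Stat5b and Stat6) and 0 of 2 tested further receptor chains (Crlf2 and Il13ra1, which pair with Il7r and Il4ra) were called in any comparison. Il9r, the IL-9 binding partner of the common gamma chain, was below the filter. The median log2 difference between hosts of the 5 kinases and STATs was 0.31 in ATRX CT and 0.18 in ATRX KD tumors, against 0.01 and -0.02 over all genes tested. Steep libraries, 4 from Balb/c and 2 from NSG mice, were spread unevenly over the hosts. These medians were not corrected for the trend along transcript length, and its part in them was not tested. Of 8 feedback and target genes (Cish, Socs1, Socs2, Socs3, Pim1, Pim2, Bcl2 and Osm), 0 were called. Cish, a STAT5-induced inhibitor of cytokine signalling, came nearest, in ATRX KD tumors. It was at 3.05 ± 0.252 FPKM in Balb/c ATRX KD (SD, n = 4) and 1.502 ± 0.512 FPKM in NSG ATRX KD tumors (SD, n = 5). These groups did not overlap, as was so for 8.13% of all genes tested there. The log2 difference of Cish was 0.72 (SE 0.15, adjusted p = 0.0305 in limma). In ATRX CT tumors, Cish overlapped, at 3.40 ± 0.874 against 2.28 ± 0.519 FPKM (SD, n = 4 and 5), with a log2 difference of 0.41 (adjusted p = 0.233 in limma). Socs3 did not overlap in ATRX CT tumors, as was so for 7.57% of all genes. Its means were 38.3 against 28.7 FPKM (log2 difference 0.41, adjusted p = 0.0988 in limma), and it overlapped in ATRX KD tumors.

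The partners of Prkdc in end joining were present in both hosts, apart from Dntt, which was near the filter. Dntt was between 0.0686 and 0.272 FPKM in Balb/c and between 0.0429 and 0.313 FPKM in NSG tumors. Of 9 tested (Xrcc5, Xrcc6, Lig4, Xrcc4, Nhej1, Dclre1c, Poll, Polm and Dntt), 0 were called in any comparison, and the median log2 difference between hosts was 0.01 in ATRX CT and -0.06 in ATRX KD tumors. Xrcc6, which encodes the Ku70 end-binding subunit, was between 20.6 and 30.4 FPKM (median 24.1) in Balb/c and between 21.2 and 38.5 FPKM (median 28.8) in NSG tumors. Xrcc5, for its partner Ku80, was higher in ATRX KD than ATRX CT tumors of NSG mice without overlap, at 17.4 ± 2.66 against 10.4 ± 2.37 FPKM (SD, n = 5 each). The log2 difference of 0.71 (SE 0.15, adjusted p = 0.0254 in limma) stayed under the fold threshold. Dclre1c, for the nuclease Artemis that DNA-PKcs activates, was lower there, at 6.01 ± 0.499 against 9.04 ± 1.71 FPKM (SD, n = 5 each). Its log2 difference was -0.50 (SE 0.13, adjusted p = 0.0441 in limma). In that comparison, 994 of 14654 genes had an adjusted p under 0.05 in limma, and 7.5% had no overlap. The recombinase genes were at most at 0.0283 FPKM (Rag1) and 0.0132 FPKM (Rag2), and Rag2 was listed at 0 in 17 of 18 tumors.

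Across the 18 tumors, with the mean of its group taken from each value, the genes most like Il2rg among 12181 that averaged 1 FPKM or more were Casp12, Spib, Scamp3, Il1r1 and Stra6 (Pearson r between 0.671 and 0.763). Those most like Prkdc were Syne2, Mdn1, Pkd1, Hspg2 and Vps13b (r between 0.929 and 0.935), whose transcripts, of 13371 to 21718 nt, are about as long as or longer than that of Prkdc. With the trend along transcript length removed from each library, 2 of the 5 were again among the most similar for each gene, Scamp3 and Casp12 for Il2rg and Vps13b and Mdn1 for Prkdc. All points share their library, and the values are a description over tumors that fall into 2 library classes.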

How the data were processed

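The authors sequenced ribo-depleted, stranded libraries of total RNA, aligned the reads to mm10 with STAR (version 2.6.0c in the submitters' processing notes), removed low-quality and duplicate reads, and quantified RefSeq genes with Cufflinks 2.2.1. The deposited values are log2 (FPKM + 1) per gene and tumor. Base 2 was settled from the values, since FPKM times transcript length summed to 1.099 to 1.131 times the expected total with base 2 and to 8.453 to 11.23 times with the natural log. The deposited annotation gave coordinates and transcript lengths. Spike-ins (92 of 20970 entries) were left out of the tests. Tumors were grouped by their labels, and the mouse numbers are not shared between groups. Nothing beyond separate animals defines the replicates.

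Groups were compared with limma 3.58.1 in R 4.3.3 (lmFit and eBayes with trend), fitting the 2 groups of a comparison, or all 4 for the difference of the shRNA effect, over genes averaging 0.1 FPKM or more. Single ratios were tested by exact permutation, two-sided. For the ratio of Il2rg to Ptprc a pseudocount of 0.1 was used. The fits were first checked on made-up data with known changes. Fragments were estimated from the steps between low values with a fragment length of 160 nt; the share of these values no more than 0.1 fragment away from an integer was 36.8% to 45.7%, against 20% for evenly spread values, so whole reads were not recovered and no count test was run. Floors are 3 fragments and cover counting error only.

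The 9 genes and the gene lists were chosen with earlier results of these data known. Genes named were the 9, Atrx, Ptprc, and the called genes with the largest differences and the ligands of the lists. The 5 genes most like Il2rg and Prkdc were named as well. Cish, Socs3, Xrcc5, Xrcc6, Dclre1c, Rag1, Rag2 and Insl3 were added with their values in view. The alternatives were another pseudocount, other filters, median-ratio scaling, removal of the length trend, a fit of all groups, no fold threshold and leaving out each tumor; the library class was added after seeing the data. B cell, neutrophil, dendritic cell, mast cell, endothelial, keratinocyte, skeletal muscle and osteoblast gene lists were also counted. A listed gene is not reported here.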

Additional observations from a re-analysis of the deposited data

How the results depend on the processing

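Il2rg and Il2rb kept their calls between hosts under every setting tried, including each fit without 1 tumor (Il2rg 1.49 to 1.77 in ATRX CT and 1.94 to 2.10 in ATRX KD tumors). Il2ra was called in both comparisons of hosts with a pseudocount of 0.1 (1.93 and 1.87) and without a fold threshold. No other member was called under any setting. The genes called between hosts were 416 (ATRX CT) and 424 (ATRX KD) with a pseudocount of 0.1 and 472 and 534 without a fold threshold, against 212 and 204. Between grafts in Balb/c mice, 1 gene was called (Mcpt2, a mast cell protease), 0 with a filter at 1 FPKM, with every gene above 0 or with the length trend removed, 9 with all groups in one fit, and 0 to 2 without 1 tumor (2 without mouse 43). In NSG mice it was 68, with 226 at a pseudocount of 0.1, 994 without a fold threshold and 27 to 124 without 1 tumor (27 without mouse 30, 34 without 28, 39 without 4, 44 without 29 and 124 without 26). For the difference of the shRNA effect, 0 became 11 with the library class as a term and 0 to 1 without 1 tumor (1 without mouse 43 or 26). The cause was not tested.

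Uncalled members near 0 changed sign when 1 tumor was left out. Between hosts the ranges were -0.24 to 0.036 (Il21r, ATRX CT), -0.16 to 0.0141 (Il4ra, ATRX KD) and -0.076 to 0.0367 (Il7r, ATRX KD). Between grafts in Balb/c mice they were -0.10 to 0.12 (Il2rg), -0.19 to 0.0063 (Il2ra), -0.049 to 0.24 (Il2rb), -0.16 to 0.0162 (Il4ra), -0.0332 to 0.0681 (Il7r) and -0.14 to 0.13 (Jak3), and in NSG mice -0.0687 to 0.0173 (Il2ra), -0.14 to 0.0201 (Il15ra) and -0.14 to 0.0017 (Jak3). For the difference of the effect they were -0.16 to 0.0332 (Il2ra), -0.0422 to 0.24 (Il2rb) and -0.0443 to 0.22 (Jak3). The log2 ratio of Il2rg to Ptprc between grafts was -0.0853 to 0.0951 in Balb/c and -0.24 to 0.14 in NSG mice without 1 tumor, and 0.0746 in Balb/c mice with the mean of Ptprc, Coro1a and Hcls1 as the reference. No paired analysis was possible because the groups share no mouse number.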

Other observations

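Among the other cell types, 0 of the 4 tested B cell genes (of 6 listed) were called in either comparison of hosts, 1 of them having an adjusted p under 0.05 in limma in ATRX CT tumors, and their summed FPKM was between 1.96 and 3.31 in Balb/c and between 1.62 and 5.92 in NSG tumors. Of 5 neutrophil genes, 0 were called in ATRX CT and 2 in ATRX KD tumors, both higher in Balb/c mice, with summed FPKM between 92.6 and 375.6 in Balb/c and between 49.1 and 201.9 in NSG tumors. Of 6 mast cell genes, 1 was called higher in Balb/c mice in ATRX CT and 0 in ATRX KD tumors. The 5 dendritic cell, 5 keratinocyte and 5 skeletal muscle genes and the 3 tested osteoblast genes had 0 called between hosts, and of 5 endothelial genes 1 was called higher in Balb/c mice in ATRX CT and 0 in ATRX KD tumors.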
